A study of Mus musculus with 3 samples.

Results

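Cholesterol synthesis, uptake and regulation was followed through 28 genes, chosen by symbol from the 32285 genes of the count tables and described across the cell classes of 3 mouse kidney libraries. Of the 28, 18 encode enzymes of the route from acetyl-CoA to cholesterol, 4 encode sensors and regulators, and 6 act in transport, storage and control of uptake. Kidneys of male mice aged 28 weeks were dissociated, the RNA of single cells was barcoded in droplets, and each group gave 1 library. The first group was db/m on a fructose-free control diet, the second db/db on the same control diet, and the third db/db on a diet with 60% fructose, and in every group the diet began at 8 weeks of age and lasted 20 weeks. The db allele disrupts the long form of the leptin receptor in all cells of the body: db/db mice have no normal copy and become obese and diabetic, and db/m mice carry 1 normal copy and stay lean. The leptin receptor gene Lepr gave 14, 10 and 15 UMIs over all kept cells of the 3 libraries, and these gene-level counts do not check the genotype, because the allele changes splicing. The number of mice behind each library is not given in the sources used here.

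Cells make cholesterol from acetyl-CoA through mevalonate, farnesyl diphosphate, squalene and lanosterol, and take it up from lipoproteins. When cholesterol in the endoplasmic reticulum falls, SCAP escorts the transcription factor SREBP-2 (gene Srebf2) to the Golgi, where it is cut and freed to switch on genes of synthesis and uptake. When sterols are plentiful, INSIG1 and INSIG2 hold SCAP back, and the liver X receptor (gene Nr1h3) turns on export genes and Mylip, a ubiquitin ligase that limits uptake. In the kidney the proximal tubule is a large, membrane-rich epithelium that both makes cholesterol and takes up filtered and circulating lipid.

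Values in a row of 3 below are those of db/m, then db/db on the control diet, then db/db on fructose. The libraries held 13524, 26513 and 20383 barcodes, and 9940, 16226 and 16049 cells were kept, with medians of 1679, 1628 and 1531 UMIs (unique molecular identifiers, each counted as 1 captured RNA molecule). Between 379 and 780 barcodes were shared by a pair of libraries and 13 by all 3. Cells were clustered without the 28 genes, and a class is called after a cell type only as resembling it, from lists of markers. Proximal tubule-like cells numbered 6050, 6152 and 8644. All 24 markers of that list were detected in these cells, with summed levels of 31946, 20987 and 28210 CPM. CPM is the count of a gene per 1000000 UMIs of its class and library. The sums were 10241 or less in the other classes compared here, and 12014 or less in erythroid-like cells, which served as background. The 3 libraries were not alike in this class: db/m cells lay mainly in clusters 1 and 8, and db/db cells of both diets mainly in clusters 15 and 16. The share of UMIs from the mitochondrial genome was 17.8%, 21.6% and 11.3%. A further 178, 3580 and 855 cells stayed unnamed, most of them in a cluster with a median mitochondrial share of 35.03%. That cluster held 116, 3479 and 778 cells of the 3 libraries. Its best-scoring class was proximal tubule, but it was not named and was left out of that class.

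A gene counted as measured in a comparison where it reached 10 CPM in either library, and as higher or lower where the ratio was 1.5-fold or more. With 1 library per group there is no replicate check and no test was run. The 95% intervals are exact and cover counting error only, so a difference outside them is a difference between these libraries and not shown to be one between genotypes or diets. Fewer transcripts per cell and fewer expressing cells within a class cannot be told apart in summed counts.

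In proximal tubule-like cells on the control diet, the synthesis route was lower in db/db than in db/m at most of its steps. Of 25 members measured, 12 were lower, against 15.5% of all 8717 measured genes, and 0 were higher, against 7.48%. The members' median log2 ratio was -0.56, and that of all measured genes was -0.01. The 12 were Mvd, Idi1, Fdps, Cyp51, Msmo1, Nsdhl, Hsd17b7, Ebp, Dhcr7, Insig1, Acat2 and Npc2, and the interval of each left out a ratio of 1. Mvk, Pmvk and Tm7sf2 were under 10 CPM in both libraries. With counts scaled by the median ratio of all genes 12 were again lower, against 15.1%, and 0 higher, against 7.84%. With CPM outside the mitochondrial genome 11 of 26 were lower, against 12.9%, and 0 higher, against 10.1%. The plot of proximal tubule levels shows all 28 genes in the 3 libraries.

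**Figure D1:**
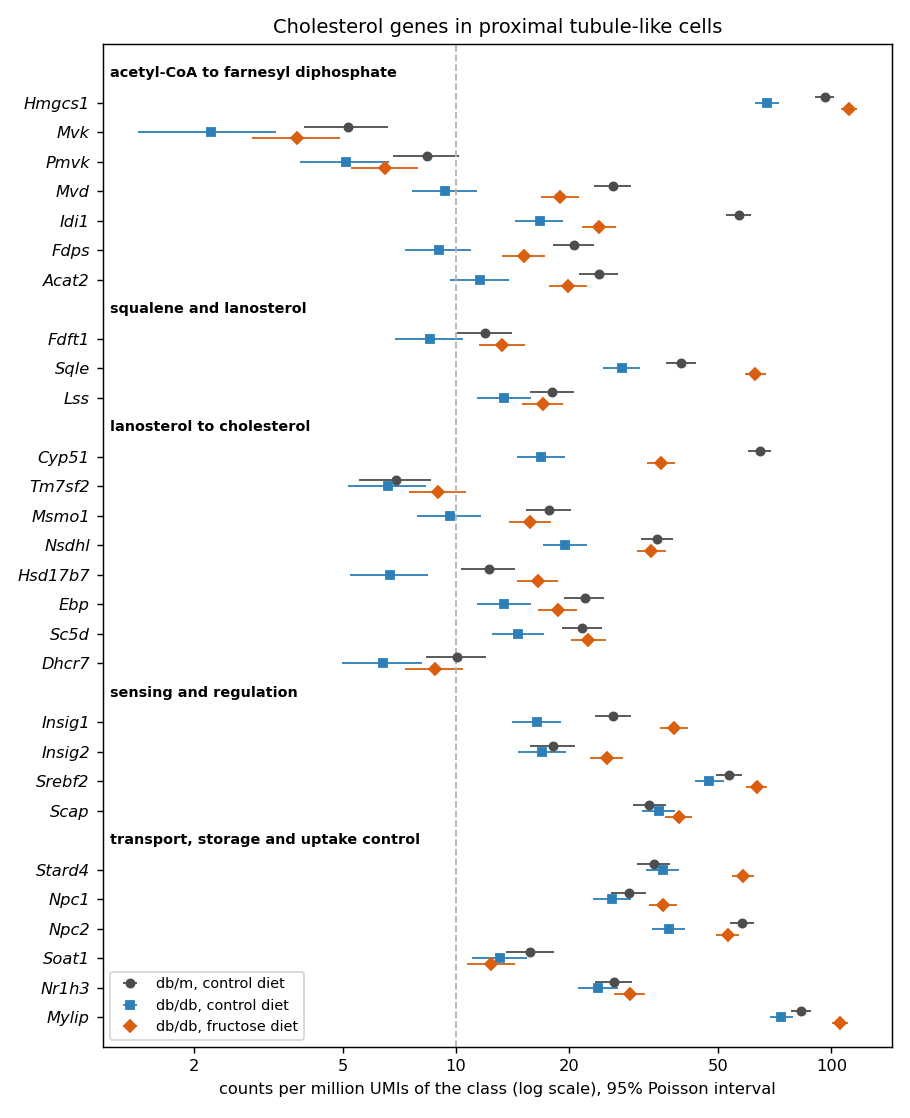
Level of each of the 28 genes in proximal tubule-like cells of the 3 libraries, in CPM on a log axis, with exact Poisson 95% intervals for counting error and the 10 CPM minimum as a dashed line. The db/db control diet library (squares) is the lowest of the 3 for most synthesis enzymes, and for Cyp51 it stands at 16.9 CPM against 64.4 in db/m and 35.2 on fructose.

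The early enzymes carry acetyl-CoA to farnesyl diphosphate, and 4 of the 5 measured were lower. Idi1, which interconverts the isoprene building blocks, stood at 56.7 CPM in db/m, 16.7 in db/db on the control diet and 24.1 in db/db on fructose. Idi1 was thus 3.40-fold lower in db/db on the control diet (log2 ratio -1.76, interval -2.01 to -1.52), and it stayed lower than db/m on fructose as well. Mvd, the mevalonate diphosphate decarboxylase that makes the first isoprene unit, stood at 26.2, 9.37 and 19.0 CPM, 2.79-fold lower in the first comparison. Fdps, which joins isoprene units into farnesyl diphosphate and overlaps Gm43738 on the same strand, stood at 20.6, 8.999 and 15.2 CPM and was 2.29-fold lower. Acat2, the cytosolic thiolase that starts the route, stood at 24.0, 11.6 and 19.9 CPM and was 2.07-fold lower. Acat2 has a near copy in the mouse genome, Acat3, so its counts are uncertain where reads fit both. Hmgcs1, the cytosolic HMG-CoA synthase, was at 96.1, 67.4 and 111.2 CPM, a 1.43-fold difference that did not reach the 1.5-fold limit although its interval left out 1 (-0.65 to -0.38 on the log2 scale). Mvk was at 5.15, 2.23 and 3.78 CPM and Pmvk, the kinase after it, at 8.35, 5.10 and 6.48 CPM. In both kinases the db/db control diet library was again the lowest of the 3, below the level needed for a ratio here.

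The middle enzymes, which turn farnesyl diphosphate into squalene and close its rings, stayed within 1.5-fold between the genotypes, with log2 ratios of -0.52 to -0.42 for the 3. Sqle, the squalene epoxidase that is one of the controlled steps of the route, stood at 39.7 CPM in db/m, 27.6 in db/db on the control diet and 62.8 on fructose. Fdft1, squalene synthase, stood at 11.98, 8.53 and 13.3 CPM, and Lss, lanosterol synthase, at 18.1, 13.5 and 17.1 CPM. All 3 had intervals that left out 1, so the db/db control diet library was the lowest for each by more than counting error. Fdft1 overlaps Ctsb, and Cyp51 overlaps Akap9, on the opposite strand, and whether the counting used strand is not given in the sources used here.

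Among the late enzymes, which remove methyl groups from lanosterol and shift its double bonds, 6 of the 7 measured were lower. Cyp51 (chr5:4081145-4104746 in mm10, minus strand), the lanosterol 14-alpha-demethylase, had the largest difference of the members measured in these cells. It gave 763 UMIs in db/m, 182 in db/db on the control diet and 522 on fructose, or 64.4, 16.9 and 35.2 CPM. Cyp51 was 3.81-fold lower in the first comparison, with a log2 ratio of -1.93 (-2.17 to -1.70). Msmo1, the methylsterol monooxygenase, stood at 17.7, 9.65 and 15.8 CPM and was 1.84-fold lower. Nsdhl, the decarboxylating dehydrogenase that acts after it, stood at 34.3, 19.6 and 33.1 CPM and was 1.75-fold lower. Hsd17b7, the 3-keto reductase of the same complex, stood at 12.2, 6.68 and 16.5 CPM and was 1.83-fold lower. These 3 genes serve 1 demethylation cycle, and each had its lowest level in db/db on the control diet. Ebp, the sterol isomerase, stood at 22.0, 13.5 and 18.7 CPM, and Dhcr7, the last reductase of the Kandutsch-Russell branch, at 10.0, 6.40 and 8.78 CPM. Sc5d, the desaturase between them, was at 21.7, 14.7 and 22.5 CPM, 1.48-fold apart in the first comparison. Tm7sf2, a sterol reductase whose gene overlaps Vps51 on the same strand, was at 6.92, 6.59 and 8.98 CPM and was not measured.

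Of the 4 sensors and regulators 1 was lower. Insig1 (chr5:28071363-28078662 in mm10, plus strand), which retains SCAP when sterols are plentiful and is itself a SREBP-2 target, stood at 26.2 CPM in db/m, 16.4 in db/db on the control diet and 38.1 on fructose. Insig1 was 1.60-fold lower in the first comparison (log2 ratio -0.68, -0.95 to -0.41). Insig2, the isoform that is less tied to SREBP-2, was at 18.1, 17.0 and 25.2 CPM, and its interval in the first comparison held 1 (-0.39 to 0.20). Srebf2 itself, whose gene overlaps Gm49502 and Mir33 on the same strand, was at 53.5, 47.3 and 63.3 CPM, 1.13-fold apart in the first comparison. Scap was at 32.7, 34.7 and 39.2 CPM, with an interval that held 1 (-0.12 to 0.29). The levels of Srebf2 and of Scap thus each differed by less than 1.5-fold in all 3 comparisons, and these counts say nothing of the processing of SREBP-2 protein.

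Of the 6 transport, storage and uptake genes, Npc2 alone was lower. Npc2, the soluble sterol carrier of the lysosome, stood at 57.9 CPM in db/m, 36.8 in db/db on the control diet and 53.0 on fructose, 1.57-fold lower. Npc1, its membrane partner, which overlaps Rmc1 on the opposite strand, was at 28.9, 26.1 and 35.6 CPM, with an interval that held 1 in the first comparison. Stard4, a cytosolic sterol carrier, was level between the genotypes at 33.7 and 35.6 CPM and stood at 58.2 on fructose. Soat1, which esterifies cholesterol for storage, was at 15.8, 13.1 and 12.4 CPM, and it was the 1 measured member whose level was lowest on fructose. Nr1h3, the liver X receptor alpha, was at 26.3, 23.9 and 29.0 CPM, and Mylip was at 83.1, 73.6 and 105.4 CPM. Neither differed by 1.5-fold in any of the 3 comparisons.

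**Figure D2:**
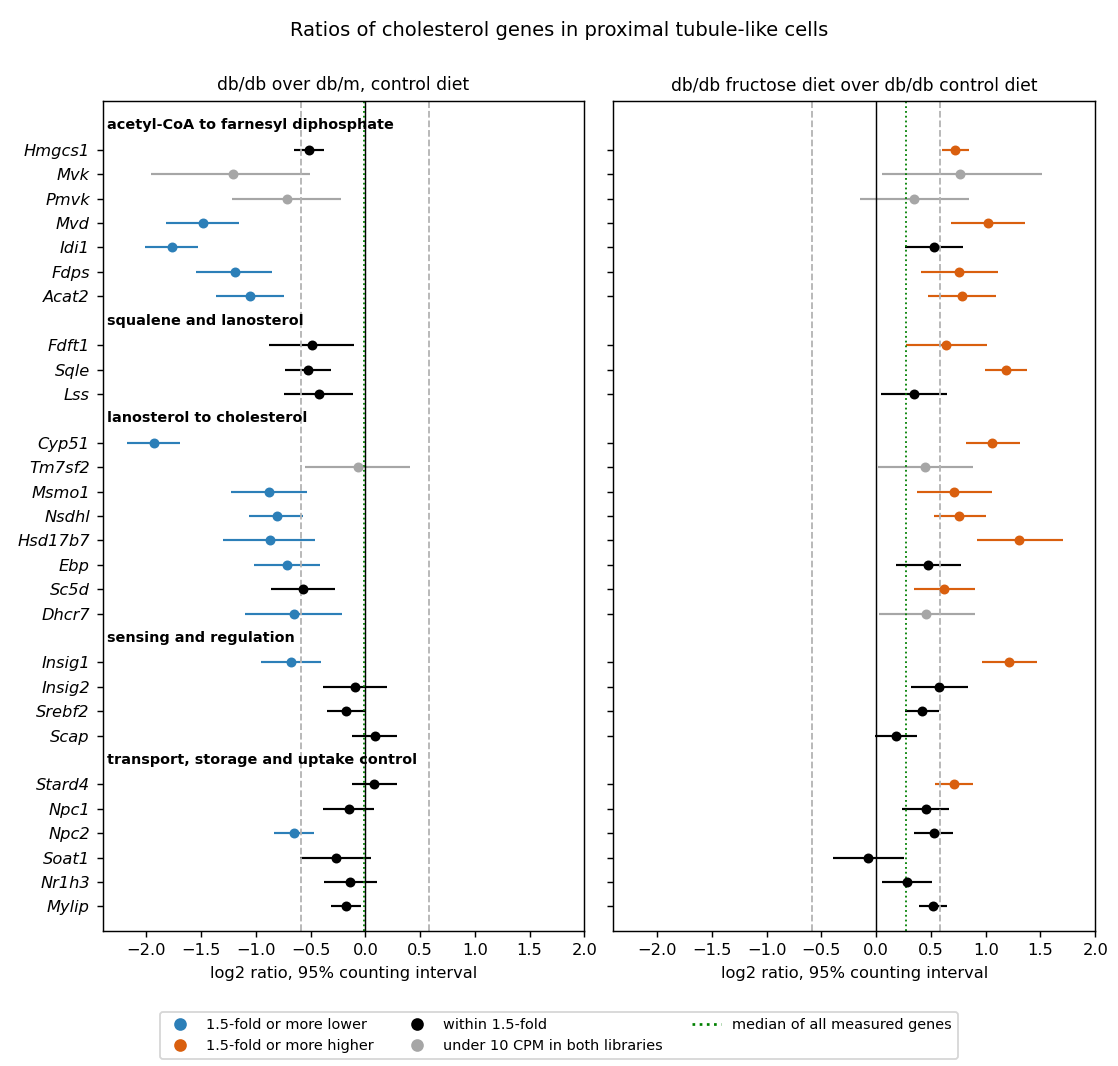
Log2 ratios of the 28 genes in proximal tubule-like cells with exact 95% counting intervals, for db/db over db/m on the control diet (left) and for fructose over control diet in db/db (right). Dashed lines mark 1.5-fold and the dotted line the median of all measured genes, which is -0.01 on the left and 0.27 on the right, and the members lie mostly below the line on the left and above it on the right.

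In db/db proximal tubule-like cells the fructose diet library was higher than the control diet library for most of the route. Of 24 members measured, 13 were higher, against 11.8% of all 9006 measured genes, and 0 were lower, against 1.47%. The 13 were Hmgcs1, Mvd, Fdps, Acat2, Fdft1, Sqle, Cyp51, Msmo1, Nsdhl, Hsd17b7, Sc5d, Insig1 and Stard4. The members' median log2 ratio was 0.63 beside 0.27 for all measured genes, so the reference itself was shifted upwards in this comparison. Hsd17b7 had the highest ratio, 2.48-fold (log2 1.31, 0.92 to 1.71), followed by Insig1 at 2.32-fold (1.22, 0.97 to 1.47) and Sqle at 2.27-fold (1.18, 0.99 to 1.38). Cyp51 was 2.09-fold and Mvd 2.02-fold higher. Those 5 genes span the early, middle and late enzymes and the feedback regulator. With counts scaled by the median ratio of all genes, a shift of -0.27 in the log2 ratios, the higher members were these 5 of 24, against 3.88% of all genes, and 0 were lower, against 3.04%. With CPM outside the mitochondrial genome, a shift of -0.18, these 5 and Acat2 were higher, 6 of 25 against 5.63%, and 0 were lower, against 2.47%. Idi1 (1.44-fold), Lss (1.27-fold) and Ebp (1.39-fold) were the measured enzymes within 1.5-fold, and Insig2 (1.49-fold), Srebf2 (1.34-fold) and Mylip (1.43-fold) were close to the limit. Scap, at 1.13-fold, had an interval that held 1 (-0.01 to 0.37), as did Soat1 (-0.40 to 0.25).

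The genotype and diet comparisons share the db/db control diet library, so a low value there gives a difference in both. Of the 24 members measured in both, that library was the lowest of the 3 for 21, against 47.1% of all 8603 genes measured in both, and the exceptions were Scap, Stard4 and Soat1. Fructose db/db cells were then set against db/m, a comparison that leaves that library out but in which genotype and diet differ together and cannot be told apart. Of 25 members measured, Sqle and Stard4 were higher, against 20.0% of all 9048 genes, and Idi1 and Cyp51 were lower, against 5.21%. Sqle was 1.58-fold and Stard4 1.73-fold higher, and Idi1 was 2.35-fold and Cyp51 1.83-fold lower. The median log2 ratio of the members was 0.06, below the 0.26 of all measured genes. With counts scaled by the median ratio of all genes 0 of 25 were higher, against 7.75%, and Mvd, Idi1, Fdps, Cyp51 and Soat1 were lower, against 12.7%. With CPM outside the mitochondrial genome Stard4 alone of 27 was higher, against 13.4%, and Idi1 and Cyp51 were lower, against 7.65%.

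Summed over the 18 synthesis genes, proximal tubule-like cells held 496.2 CPM in db/m (483.6 to 509.0), 264.9 in db/db on the control diet (255.2 to 274.8) and 452.5 on fructose (441.7 to 463.4). Counted per cell after thinning every cell to 1000 UMIs, a UMI of any of the 18 was found in 35.1% of db/m cells, 23.1% of db/db control diet cells and 34.8% of fructose cells. Before thinning the shares were 51.1%, 34.96% and 48.3%, and 1129, 219 and 1085 shallower cells were left out by it. Erythroid-like cells, which should make little of these enzymes, gave 12.2%, 10.1% and 16.9% after thinning, with 95% limits between 5.15% and 27.1%. Median depths before thinning were 1530, 1629.5 and 1512 UMIs in proximal tubule-like cells and 1744.5, 1904 and 1309.5 in erythroid-like cells. The summed level in erythroid-like cells was 164.5, 122.4 and 190.0 CPM, with intervals that overlapped among the 3 libraries. The proximal tubule shares lay above the upper limit of this background in each library. The background is imperfect, because the 8 erythroid markers took 438309, 317322 and 371263 CPM in erythroid-like cells. That lowers the CPM and the thinned shares of all other genes there. Erythroid-like cells also held the 24 proximal tubule markers at 12014, 7844 and 10092 CPM.

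The mitochondrial share and the tubule segment markers moved with the libraries, so cells were split by each in turn. Within proximal tubule-like cells with under 10% mitochondrial UMIs, the summed enzymes stood at 554.2, 297.5 and 474.4 CPM, from 1653, 190 and 4857 cells. Between 10% and 20% they stood at 514.7, 287.8 and 450.4 CPM, between 20% and 30% at 449.9, 251.4 and 374.4 CPM, and between 30% and 50% at 391.6, 221.5 and 305.4 CPM. The order of the 3 libraries was the same in each of the 4 ranges, and the intervals of the db/db control diet library did not overlap those of the other libraries in any of them. Within each library the level was lower in each range of higher mitochondrial share. CPM counts mitochondrial UMIs in its total, so a fall across the ranges is built into this scaling. It is not read here as a change in the enzymes. Summed markers of other classes in proximal tubule-like cells also differed: the 12 thick ascending limb markers stood at 1623, 2049 and 1975 CPM, the 12 distal convoluted tubule markers at 830.0, 1423 and 1087, and the 14 endothelium markers at 65.2, 124.1 and 151.3, with 0 markers of these lists at 0. The 12 macrophage markers stood at 138.7, 128.9 and 135.1 CPM. Other lists had their lowest sum in the db/db control diet library, as the enzymes did: the 12 monocyte and dendritic cell markers stood at 201.1, 88.3 and 196.6 CPM, with 1 to 3 of them at 0. The 13 markers of pericytes, mesangial and smooth muscle cells stood at 202.7, 74.7 and 145.5 CPM, the 12 thin limb markers at 341.9, 162.3 and 218.6, and the 8 markers of dividing cells at 41.7, 24.2 and 61.4. The class's own 24 markers were also lowest there. With an estimate of free RNA subtracted, 12 members were lower in db/db on the control diet and 14 higher on fructose. No share of all genes is given for this subtraction, so these counts do not show whether members still stood out. The part of the other cells and of the marker levels in these results was not tested.

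**Figure D3:**
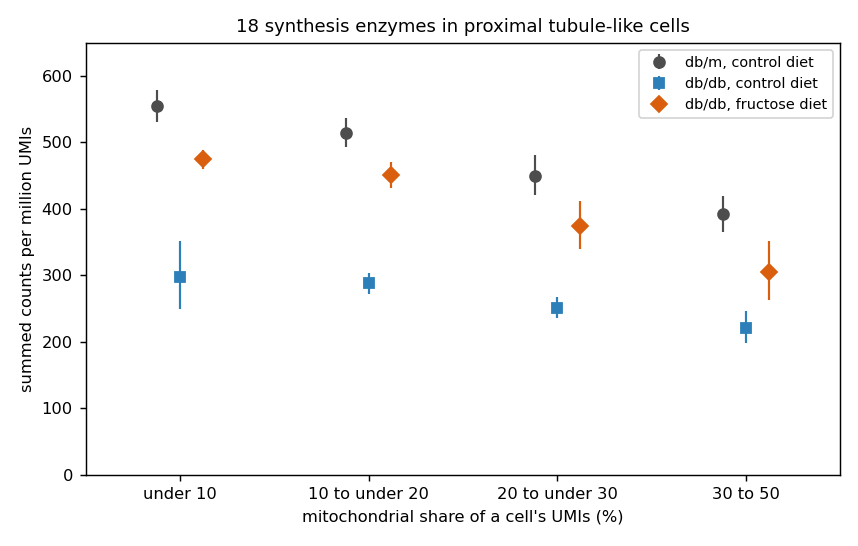
Summed level of the 18 synthesis genes in proximal tubule-like cells, split by the mitochondrial share of each cell's UMIs, with exact Poisson 95% intervals. In all 4 ranges db/db on the control diet (squares) is the lowest, at 297.5 CPM in the lowest range and 221.5 in the highest. CPM counts mitochondrial UMIs in its total, which lowers the level in the higher ranges.

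The late, straight part of the proximal tubule was found mainly in the db/m library by its markers: 745 db/m cells had more late than early marker UMIs, against 14 and 44 in the db/db libraries. In db/m, late cells had more Cyp51 than early cells (112.9 against 56.6 CPM, log2 ratio 1.00, 0.74 to 1.25), more Idi1 (92.4 against 50.8 CPM) and more Ebp (32.4 against 20.4 CPM). Fdps, Srebf2 and Stard4 were lower in late cells, so the 25 members measured held 3 higher, against 6.13% of all genes, and 3 lower, against 8.93%. Cells with more early than late marker UMIs were then compared on their own. They were 83.0%, 99.2% and 99.1% of the class, so nearly all db/db cells were set against a part of the db/m cells. Late cells with few late marker UMIs would fall among them, and this was not tested. Cyp51 stood at 56.6, 16.8 and 34.8 CPM in these early cells and Idi1 at 50.8, 16.6 and 24.2 CPM. The log2 ratios of db/db over db/m on the control diet were -1.75 for Cyp51 and -1.61 for Idi1, slightly smaller than in all proximal tubule-like cells. The summed enzymes in early cells were 480.5, 264.1 and 451.0 CPM.

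Other genes of the pathway were taken from a list of 26, of which 25 were found in the tables and 19 were measured in proximal tubule-like cells. Between the genotypes on the control diet 4 of the 19 were lower, against 15.5% of all measured genes, and 1 was higher, against 7.48%. For fructose over control diet in db/db 4 were higher, against 11.8%, and 0 lower, against 1.47%. For fructose db/db over db/m 3 were higher, against 20.0%, and 0 lower, against 5.21%. These counts are small and lie near those shares. Srebf1, which mainly drives fatty acid synthesis, stood at 32.9, 19.0 and 26.5 CPM and was among the lower genes between the genotypes, with a log2 ratio of -0.79. Nceh1, a cholesterol ester hydrolase, stood at 105.0, 68.3 and 92.1 CPM and was also lower, with a log2 ratio of -0.62. Both had their lowest level in db/db on the control diet. Cyp27a1, which makes 27-hydroxycholesterol, ran the other way, at 41.2, 69.6 and 86.7 CPM, and Abca1, the cholesterol exporter, stood at 29.9, 43.6 and 32.8 CPM. Gramd1b, a carrier of plasma membrane cholesterol, was highest on fructose at 135.6, 175.1 and 267.7 CPM.

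The bases before the members' transcription starts were read for letters known from sterol-regulated promoters. In proximal tubule-like cells 8 of the 24 members measured in both comparisons were lower between the genotypes and higher on fructose. Those comparisons share a library, and shared control of these genes was not tested. RefSeq promoter windows (GRCm38.p6, the assembly that mm10 names) were found for 23 of the 28 members, all but Fdps, Fdft1, Sqle, Stard4 and Npc1. In the 250 bases before the start, on either strand, the CCAAT box (CCAAT, bound by NF-Y, a partner of SREBP-2) was present in 20 of 23 members (87.0%), against 37.5% of 27025 genes. The GC box (GGGCGG, bound by Sp1-type factors) was also present in 20 of 23, against 35.4% of genes. The sterol regulatory element core TCACNCCAC was present in 1 of 23 members, Hmgcs1, against 1.22% of genes. Allowing 1 letter to differ from TCACCCCAC, a search chosen after the first result was seen, gave 7 of 23 members (30.4%) against 9.69% of genes. Promoters of widely expressed genes are rich in CCAAT and GC boxes, and these shares were not compared with such genes. Each motif was counted on its own, overlaps with another included. A match is a description of the letters, not a binding site.

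Promoters are shown for Hmgcs1, which holds the 1 exact core match, and for Mvd, Hsd17b7 and Insig1. The last 3 are among the 5 genes with the highest fructose ratios in proximal tubule-like cells. Sqle, also among the 5, has no window. Cyp51, also among them, is not printed, and its window held 1 CCAAT box and 0 matches to the sterol element, also with 1 letter different. Capitals mark CCAAT boxes, written ATTGG where they lie on the other strand, and 9-letter matches to the sterol element with at most 1 letter different. The windows are chr13:119690101-119690350 (plus strand) for Hmgcs1, chr8:122443423-122443672 (minus strand) for Mvd, chr1:169969242-169969455 (minus strand) for Hsd17b7 and chr5:28071162-28071362 (plus strand) for Insig1, shortened where an annotated transcript begins further upstream.
Hmgcs1: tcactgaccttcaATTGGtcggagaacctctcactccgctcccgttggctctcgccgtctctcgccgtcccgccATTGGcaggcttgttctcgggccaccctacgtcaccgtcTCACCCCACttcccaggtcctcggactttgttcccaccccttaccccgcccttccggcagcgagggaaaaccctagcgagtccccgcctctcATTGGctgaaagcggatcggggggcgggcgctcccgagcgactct
Mvd: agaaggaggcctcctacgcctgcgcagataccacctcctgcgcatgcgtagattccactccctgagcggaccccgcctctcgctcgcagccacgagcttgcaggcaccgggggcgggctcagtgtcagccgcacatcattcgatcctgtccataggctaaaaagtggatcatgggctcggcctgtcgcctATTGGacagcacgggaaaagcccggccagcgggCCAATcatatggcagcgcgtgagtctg
Hsd17b7: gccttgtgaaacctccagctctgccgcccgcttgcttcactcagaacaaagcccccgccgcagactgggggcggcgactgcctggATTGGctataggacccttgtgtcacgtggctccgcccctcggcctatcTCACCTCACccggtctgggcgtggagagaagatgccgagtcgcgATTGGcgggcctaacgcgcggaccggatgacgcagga
Insig1: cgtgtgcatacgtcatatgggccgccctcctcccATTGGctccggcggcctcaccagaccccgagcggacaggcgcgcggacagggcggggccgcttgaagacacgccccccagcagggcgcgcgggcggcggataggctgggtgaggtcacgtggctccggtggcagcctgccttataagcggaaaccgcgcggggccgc
The Hmgcs1 stretch holds 3 CCAAT boxes and the match TCACCCCAC, 137 bases before the RefSeq start. The Mvd stretch holds 2 CCAAT boxes and no element match, the Hsd17b7 stretch 2 boxes and the match TCACCTCAC, and the Insig1 stretch 1 box. Hmgcs1 was 1.65-fold higher on fructose than on the control diet in proximal tubule-like cells, and the ratios of the other 3 stand above.

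Outside the proximal tubule, too, more members were lower than higher in db/db on the control diet in each class compared, with smaller counts behind each value. The other classes compared, 5 in number, had at least 100 cells in db/m and db/db on the control diet, and they gave 110 member-class pairs measured. Of these 40 were lower, against 10.5% of all gene-class pairs, and 5 were higher, against 9.91%. For fructose over control diet in db/db, with mononuclear phagocyte-like cells as the sixth class, 51 of 131 pairs were higher, against 16.2%, and 2 were lower, against 4.18%. Fructose db/db over db/m gave 20 of 114 pairs higher, against 20.2%, and 11 lower, against 6.51%. Pairs share their libraries and are not independent. Cyp51, named here after its values were seen, was lower in each of the 5 classes in the first comparison, at log2 ratios of -1.26 in endothelium-like to -0.75 in connecting tubule and principal cell-like cells.

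**Figure D4:**
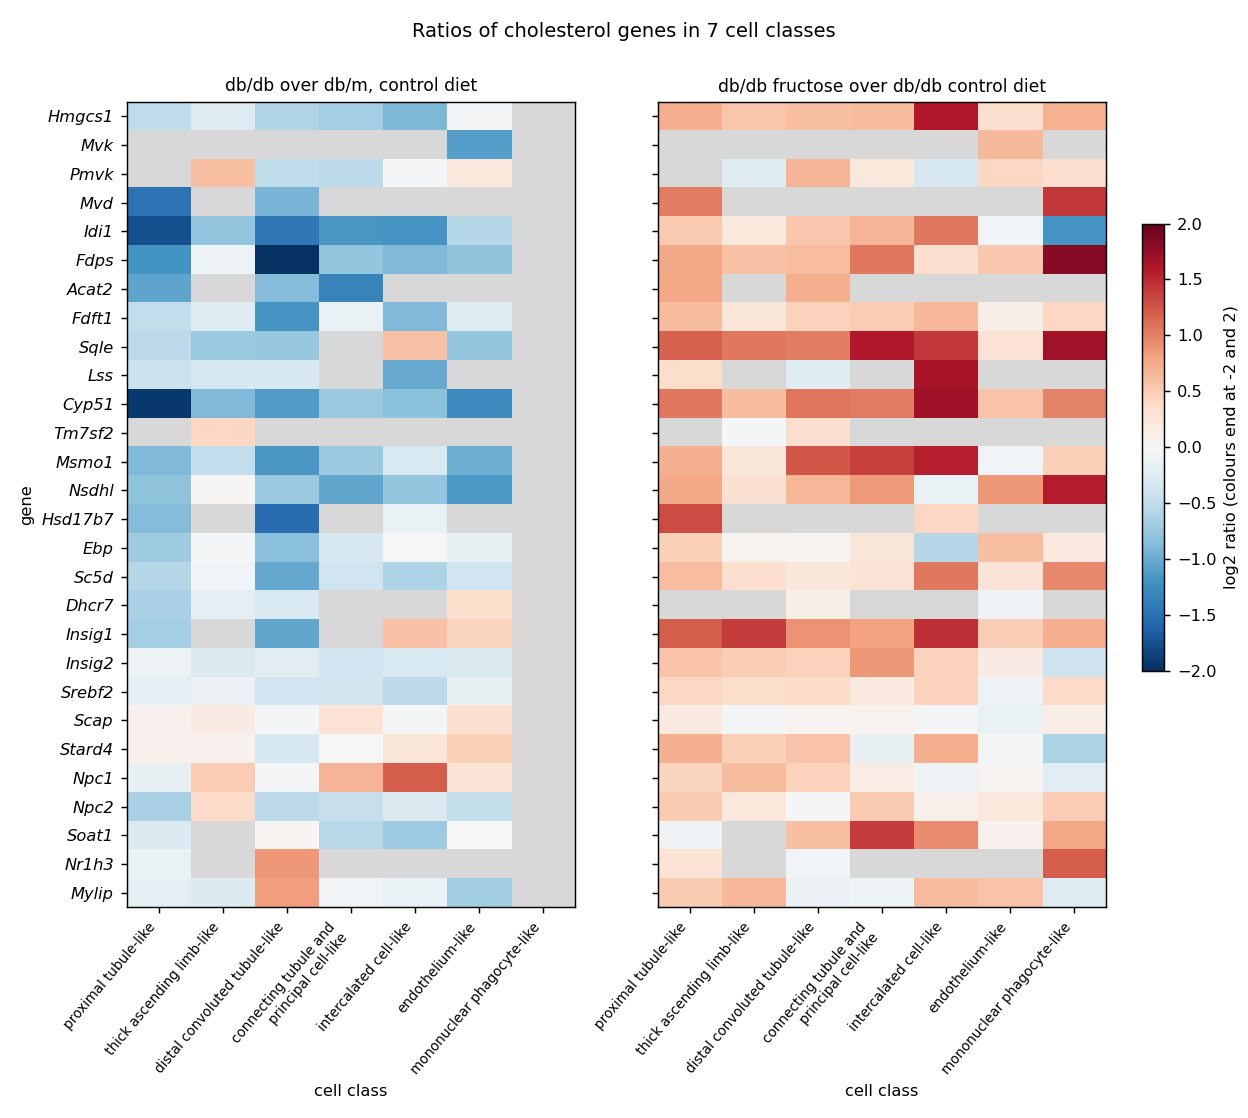
Log2 ratios of the 28 genes in 7 cell classes for db/db over db/m on the control diet (left) and fructose over control diet in db/db (right), with blue for lower and red for higher. Grey cells are genes under 10 CPM in both libraries or a class with under 100 cells in a library, and Cyp51 is blue on the left in all 6 classes shown there and red on the right in all 7.

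In distal convoluted tubule-like cells, the segment of the thiazide-sensitive transporter, 14 of 26 members were lower in db/db on the control diet, against 9.80% of all genes, and 2 were higher, against 15.7%. Of the 14, 12 had intervals that left out 1. Fdps went from 45.0 CPM in db/m to 11.5 in db/db, 3.92-fold lower (log2 -1.97, -2.51 to -1.43). Hsd17b7 was 2.87-fold and Idi1 2.68-fold lower. Mylip ran the other way, from 22.5 to 40.0 CPM, 1.78-fold higher, and Nr1h3 was 1.83-fold higher on 10 and 65 UMIs with an interval that held 1. On fructose 10 of 25 were higher, against 5.98%, and 0 lower, against 2.12%, led by Msmo1 (2.36-fold), Cyp51 (2.11-fold) and Sqle (2.04-fold). With counts scaled by the median ratio of all genes 5 of 25 were higher, against 3.59%, and with CPM outside the mitochondrial genome 6 of 26, against 3.89%, these 3 genes among them each time. Markers of other classes were present in this class. The 24 proximal tubule markers stood at 10241, 9396 and 9222 CPM and the 12 thick ascending limb markers at 6472, 4740 and 6439. The 14 markers of connecting tubule and principal cells stood at 1643, 2486 and 4714 CPM. The part of these other cells in the genotype and diet differences was not tested. The median log2 ratio of the members was -0.67 in the first comparison and 0.46 in the second, beside 0.05 and 0.10 for all genes.

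Connecting tubule and principal cell-like cells came mostly from cluster 6, which held 465, 693 and 698 of them, but the next cluster differed by library. Cluster 4 held 187 db/m cells of its 191, cluster 24 held 102 db/db control diet cells of its 120, and cluster 25 held 77 fructose cells of its 105. The 24 proximal tubule markers stood at 5484, 3814 and 3825 CPM in this class and the 12 thick ascending limb markers at 1221, 1823 and 2009. The part of these clusters and of other cells in the values was not tested. The class had 7 of 19 members lower, against 14.6%, and 1 higher, against 6.71%. Intervals left out 1 for 6 of the 7. Acat2 was 2.52-fold, Idi1 2.23-fold and Nsdhl 2.05-fold lower, and Npc1 was 1.61-fold higher. On fructose 10 of 20 were higher, against 19.0%, and 0 lower, against 2.50%. Sqle was 3.04-fold higher, on 14 and 52 UMIs, Soat1 2.63-fold and Msmo1 2.57-fold. Soat1, which stood level between the diets in proximal tubule-like cells, went from 9.84 to 25.9 CPM here. With counts scaled by the median ratio of all genes 7 of 20 were higher on fructose, against 662 of 9196 genes. Outside the mitochondrial genome 11 of 24 were, against 863 of 9711. Between the genotypes 6 of 19 were lower with the first of these scalings, against 717 of 9023 genes. With the second 5 of 21 were lower, against 699 of 9616.

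In intercalated cell-like cells, the acid- and base-secreting cells, 9 of 22 members were lower, against 13.1%, and 1 higher, against 11.0%. Intervals left out 1 for 4 of the 9. Idi1 was 2.27-fold lower, Hmgcs1 1.86-fold and Fdft1 1.84-fold, and Npc1 was 2.32-fold higher. On fructose 12 of 22 were higher, against 29.9%, and 0 lower, against 6.02%, so the background was wide in this class of 185 to 500 cells, and intervals left out 1 for 8 of the 12. Under the other scalings 3 members were higher between the genotypes, with size factors against 13.7% and outside the mitochondrial genome against 14.1%. On fructose 2 were then lower with size factors, against 15.7%, and 1 outside the mitochondrial genome, against 11.2%. Cyp51 was 3.22-fold higher on fructose (13.0 to 41.8 CPM), Hmgcs1 3.04-fold (43.5 to 132.4 CPM) and Msmo1 2.95-fold (9.92 to 29.3 CPM). The 24 proximal tubule markers stood at 6137, 4118 and 6902 CPM in this class, lowest in the db/db control diet library as the enzyme sum was. The 12 thick ascending limb markers stood at 749.2, 1687 and 1867 CPM. The part of these other cells in the ratios was not tested.

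Thick ascending limb-like cells, the segment that dilutes the urine, had the fewest lower members, 3 of 21, against 4.03%, and 1 higher, against 8.37%. The higher one was Pmvk, 1.52-fold on 31 and 65 UMIs, with an interval that held 1. Cyp51 (1.84-fold), Idi1 (1.72-fold) and Sqle (1.67-fold) were the lower ones, and outside the mitochondrial genome 6 of 26 were lower, against 4.84%. On fructose 6 of 20 were higher, against 9.83%, and 0 lower, against 1.32%, led by Insig1 at 2.64-fold (6.43 to 17.0 CPM), Sqle at 2.08-fold and Mylip at 1.58-fold. Insig1 and Sqle alone stayed higher under the other scalings. They were 2 of 20 against 3.76% with size factors and 2 of 24 against 5.72% outside the mitochondrial genome. In this class the 24 proximal tubule markers stood at 8869, 5223 and 6584 CPM. The 12 distal convoluted tubule markers stood at 1194, 1686 and 1608. The part of these other cells in the ratios was not tested.

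Endothelium-like cells had 7 of 22 lower, against 10.9%, and 0 higher, against 7.79%, with Cyp51 2.40-fold, Nsdhl 2.21-fold and Mvk 2.15-fold lower. On fructose 3 of 22 were higher, against 10.0%, and 0 lower, against 2.44%, near the background: Nsdhl (1.83-fold), Mvk (1.56-fold, with an interval that held 1) and Ebp (1.52-fold). Nsdhl alone stayed higher with size factors, against 4.02%, and outside the mitochondrial genome, against 5.22%. Outside the mitochondrial genome 2 members, Lss and Acat2, were lower on fructose, against 4.56%, and 2, Stard4 and Acat2, were higher between the genotypes, against 11.6%. In endothelium-like cells the 24 proximal tubule markers stood at 6998, 4255 and 4725 CPM. The 12 thick ascending limb markers stood at 781.5, 1515 and 1233. The part of these other cells in the ratios was not tested. Whether the classes differ from each other in these ratios could not be tested with 1 library per group.

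Mononuclear phagocyte-like cells could be compared between the diets only, since db/m gave 62 of them. On fructose 10 of 22 members were higher, against 22.8%, and 2 lower, against 10.9%. Fdps was 3.55-fold and Sqle 3.19-fold higher, each on 5 UMIs in the control diet library, and Soat1, the esterifying enzyme that fills macrophage lipid droplets, went from 41.8 to 71.3 CPM, 1.71-fold higher. These 3 of the 10 had intervals that left out 1, and neither of the lower members, Idi1 and Stard4, did. The 8 markers of dividing cells stood at 152.7 CPM on the control diet and 349.4 on fructose in this class, and the 9 neutrophil markers at 22.5 and 59.9. Their part in these ratios was not tested.

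**Figure D5:**
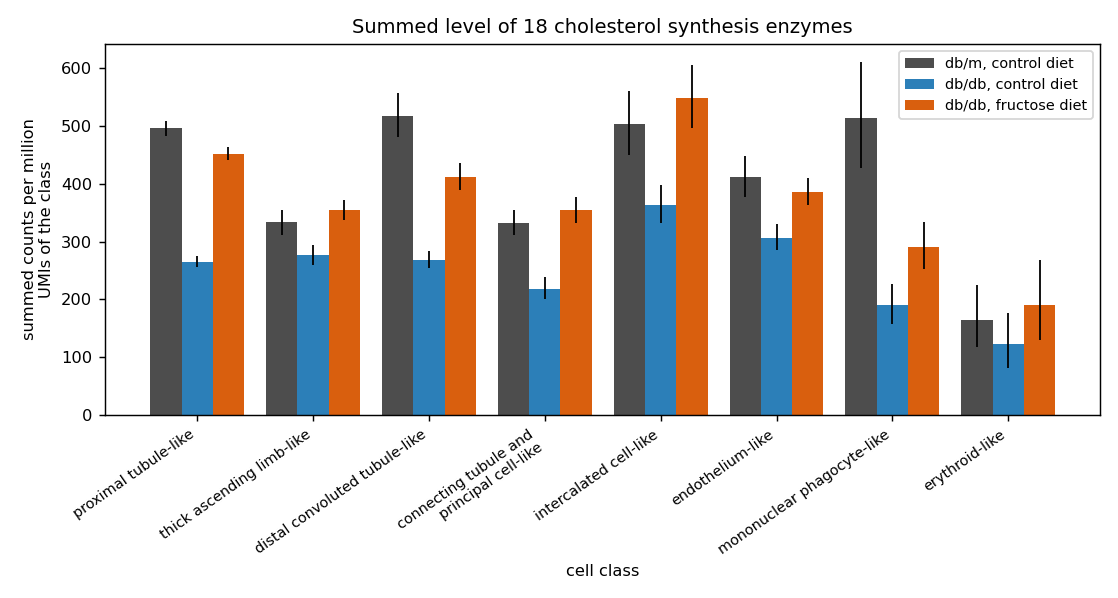
Summed level of the 18 synthesis genes by cell class and library, in CPM of the class, with exact Poisson 95% intervals and bars that start at 0. The db/db control diet bar is the lowest of the 3 in every class drawn, at 264.9 CPM in proximal tubule-like cells beside 496.2 in db/m. The erythroid-like bars, with overlapping intervals, are an imperfect background, since erythroid markers take a large part of the UMIs there.

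Summed over the 18 genes, every class named above had its lowest level in db/db on the control diet. Distal convoluted tubule-like cells held 518.0, 269.0 and 412.7 CPM, connecting tubule and principal cell-like cells 333.1, 218.6 and 354.2, and intercalated cell-like cells 503.0, 363.9 and 548.9. Thick ascending limb-like cells held 333.2, 276.6 and 354.2 CPM and endothelium-like cells 411.4, 306.6 and 385.6. Mononuclear phagocyte-like cells held 513.3 (427.3 to 611.6, from 62 cells), 189.7 and 290.9 CPM. Within each of these classes the interval of the db/db control diet library lay below those of the other 2 libraries. The summed markers of a class in its own cells were lowest in the same library in several of them, as in proximal tubule-like cells. They stood at 25754, 17147 and 22326 CPM in thick ascending limb-like cells, 23063, 15566 and 19905 in distal convoluted tubule-like cells and 28938, 19011 and 28465 in connecting tubule and principal cell-like cells. In endothelium-like cells they stood at 15819, 14108 and 16456 CPM. Intercalated cell-like cells had theirs lowest on fructose, with sums of 12046, 10418 and 9907. Mononuclear phagocyte-like cells had the macrophage markers at 10628, 9142 and 9444 CPM and the monocyte and dendritic cell markers at 57243, 42034 and 42205. The part of these marker levels in the enzyme sums was not tested.

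The mitochondrial share of UMIs was also highest in the db/db control diet library in 6 of these 7 classes, the exception being thick ascending limb-like cells at 26.9%, 26.1% and 18.7%. A share of a class's UMIs taken by free RNA was estimated at 6.72%, 10.5% and 9.46% in proximal tubule-like cells. With free RNA subtracted, 39 pairs outside the proximal tubule were lower in db/db on the control diet and 49 higher on fructose. Here too no share of all genes is given for the subtraction. The part of the mitochondrial share in those classes was not tested by ranges.

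The class of highest level was the same in all 3 libraries for 11 of 28 members, against 56.7% of the 12479 genes that reached 10 CPM in any class and library: proximal tubule-like for Mvd, Sqle, Lss, Nsdhl, Acat2 and Nr1h3, intercalated cell-like for Pmvk, Fdft1 and Hsd17b7, endothelium-like for Mvk and mononuclear phagocyte-like for Npc2. For 2 of the 28 the interval stood clear of the next class in every library, against 23.8% of those genes. In mononuclear phagocyte-like cells Npc2 reached 882.9, 507.9 and 718.8 CPM, and the next class, endothelium-like, had 211.9, 152.9 and 176.1 CPM. Macrophage lysosomes take up and unload lipoprotein cholesterol, the step that Npc2 serves. Pmvk stood at 68.8, 67.1 and 52.9 CPM in intercalated cell-like cells and had its lowest level in proximal tubule-like cells, at 8.35, 5.10 and 6.48 CPM. Nr1h3 stood at 26.3, 23.9 and 29.0 CPM in proximal tubule-like cells, clear of the next class in db/m and db/db on the control diet but not on fructose. For the other 17 members the highest class was not the same in the 3 libraries, and for 3 of these, Insig1, Stard4 and Mylip, it stood clear of the next class in 1 library. Cells thinned to 1000 UMIs gave the same highest class for 6 members instead of 11. The share of all genes is not given for thinned cells.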

How the data were processed

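The members and gene lists were chosen with earlier results of these data known. Per the labels and the submitters' processing notes, the authors made the deposited UMI counts per gene and barcode with Cell Ranger 6.0.0 on mm10; other settings are not given in the sources used here. Each library is 1 deposited matrix of 1 group. Barcodes under 200 genes or over 50% mitochondrial UMIs were dropped, and the highest Scrublet doublet scores were removed at 0.8% per 1000 barcodes (10.8%, 21.2% and 16.3%). Cells were clustered together in scanpy 1.11.5 under Python 3.11.15 (2000 variable genes without members or mitochondrial genes, 30 components, 15 neighbours, Leiden resolution 1, then 0.5) and named from markers. Counts were summed per class and library, with exact Poisson and conditional binomial 95% intervals from scipy 1.17.1, for counting error only. The code was checked on simulated counts. There were 7 classes compared, each where both libraries held at least 100 of its cells; erythroid-like cells served as background, and pericyte-like and other small classes were not compared. In the proximal tubule every measured member is described. Elsewhere members are named with at least 20 UMIs over both libraries and a 1.5-fold ratio, at most 3 per direction, class and comparison. Members overlapping an annotated gene on the same strand (Fdps, Tm7sf2, Srebf2, Nr1h3) or the opposite strand (Hmgcs1, Mvd, Idi1, Fdft1, Lss, Cyp51, Insig2, Scap, Npc1, Soat1) have uncertain counts. Some genes of the list of other pathway genes are counted but not reported here by name.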

Additional observations from a re-analysis of the deposited data

How the results depend on the processing

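No alternative in the list turned the direction of a member that passed 1.5-fold. In the proximal tubule, the 12 members lower in db/db on the control diet became 3 at a minimum of 50 CPM and 5 at 2-fold. The 13 higher on fructose became 3 and 5 under those limits, 5 with median-ratio size factors and 6 with CPM outside the mitochondrial genome. Against db/m, the 2 higher on fructose became 0 at 2-fold, 0 with size factors and 1 outside the mitochondrial genome, and the 2 lower became 1 at 2-fold and 5 with size factors. In other classes, the 40 pairs lower in db/db became 8 at 50 CPM and 16 at 2-fold. The 5 higher pairs became 0 at 50 CPM, 1 at 2-fold, 8 outside the mitochondrial genome, 8 with free RNA subtracted and 10 with cells thinned to 1000 UMIs. The 51 pairs higher on fructose became 6 at 50 CPM, 23 at 2-fold and 31 with size factors. The 2 lower pairs became 9 at 1 CPM, 0 at 50 CPM, 1 at 2-fold, 5 with size factors, 5 outside the mitochondrial genome and 7 thinned. The 11 members with 1 highest class became 6 thinned. A stricter limit admits fewer genes by construction, and for the other settings the cause was not tested. Shares of all genes under the other scalings are given above for the proximal tubule. For the remaining counts under other settings in this section, including those below, no share of all genes is given. Those counts do not show whether members stood out from other genes. Cell filters, doublet removal, cluster resolution, separate clustering and early-segment cells moved no count by over 1.5 times. The alternatives below were chosen after seeing the data: without the deepest proximal tubule cluster (158 cells, median depth 6.84 times that of their libraries) 9 members were lower in db/db and 10 higher on fructose, and with the unnamed cluster of high mitochondrial share 12 and 15. Late-segment cells alone could not be compared, since the db/db libraries held 14 and 44. No paired analysis was possible because each group has 1 library. Depth limits genes under 10 CPM and the smaller classes most.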
